A study of Mus musculus with 18 samples.

Results

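Antisense noncoding RNAs are transcripts read from the DNA strand opposite to another gene. The set described here holds the genes that the deposited count table types as antisense and that reached at least 500 raw counts summed over 18 RNA-seq libraries, leaving out Gas5 and genes whose symbols begin with Snhg. It has 120 members, out of 2826 genes typed antisense, 1509 of which had at least 1 count, and 54532 genes in the table. The exclusion of Gas5 and the Snhg genes removed 0 genes. Members were chosen by the sum of their counts over all 18 libraries, so the level of a member is not a result of its own. Just inside the threshold lay A930015D03Rik with 500 counts, Gm42722 with 506 and Gm10501 with 508, and just outside lay Etohd2 with 498, Gm48689 with 497 and D130020L05Rik with 496. A member that is high in 1 group can enter through that group. Of the 120, 86 would still have at least 500 counts with any 1 group left out.

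The libraries were made from mouse plasmacytoid dendritic cells (pDCs), an immune cell that senses nucleic acids through Toll-like receptors and releases type I interferon. Bone marrow of wild-type C57BL/6 mice was cultured for 7 days with Flt3 ligand at 80 ng/mL, a growth factor that yields dendritic cells, and B220+ cells were taken with magnetic beads to a routine purity given as 80%. The 6 groups of 3 libraries were untreated cells at 0 h, vehicle at 0 h, vehicle at 6 h, imiquimod at 6 h, vehicle at 16 h and imiquimod at 16 h. Imiquimod, an agonist of Toll-like receptor 7, was given at 2.5 µg/mL, and the vehicle is labelled LAL (Limulus amebocyte lysate). Whether this was the lysate or reagent water of that name is not clear from the labels. All groups share the strain, the Flt3 ligand culture and the bead enrichment. Whether a group's 3 libraries stem from separate animals or cultures is not stated in the labels, so p-values measure the spread between libraries, which may be technical. In bulk RNA, fewer cells of a type and less RNA per cell cannot be told apart.

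Antisense transcripts often begin at or near the promoter of a protein-coding gene and run away from it, or lie within the body of a gene on the other strand. Some act on the chromatin or transcription of their neighbours, as Kcnq1ot1 does at an imprinted locus, and for most no function is known. Ribosomal RNA was depleted and libraries were made with a kit that keeps strand, but the strand setting of the counting is not given in the sources used here. Reads of overlapping genes on opposite strands can be told apart only if that setting was right. It was checked on 44 antisense genes with at least 95% of their exon bases inside exons of a well counted gene on the other strand. Of these, 38 had counts. Over all 44, with or without counts, the median read density was 0.255% of the density of the partner gene and the upper quartile 1.29%. The highest value was 54.9%, for A630072M18Rik against Rsbn1l.

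The 18 libraries held 10609741 to 13447018 counts each, and pairs of libraries of a group differed by more than sampling noise (chi-square per degree of freedom 1.32 to 10.5). Pairs of vehicle at 6 h, the control of the 6 h comparison, gave 4.21 to 10.5. Untreated pairs gave 1.88 to 4.21, and pairs of the other groups 1.32 to 2.56. The 120 members took 0.139 to 0.164% of the counts in untreated and vehicle libraries, 0.106 to 0.111% with imiquimod at 6 h and 0.128 to 0.131% with imiquimod at 16 h. Trimmed-mean (TMM) scaling factors were 0.817 to 0.837 in the imiquimod 6 h libraries and 1.01 to 1.07 in the others. Summed pDC markers were 7739 to 9365 CPM (counts scaled to a common library size, for the marker sums without TMM factors) in untreated and vehicle libraries. They were 5220 to 5293 with imiquimod at 6 h and 4473 to 4552 at 16 h. Conventional dendritic cell markers were also lower in sum with imiquimod, from 1215 to 1652 down to 449 to 546 CPM for type 1 cells and from 295 to 363 down to 126 to 131 for type 2 cells, taking both imiquimod groups together. B cell markers summed to 113 to 148 CPM without imiquimod and 143 to 209 with it, but of the 6 tested 2 rose and 4 fell at 6 h, and 1 rose and 5 fell at 16 h. Of the 12 pDC markers 5 rose and 7 fell at 6 h, and 1 rose and 9 fell at 16 h. Markers of neutrophils, T and NK cells and erythroid cells summed to at most 1.74, 4.31 and 1.26 CPM, with Retnlg and Gzma at 0 in all libraries.

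By their position in the GENCODE M21 annotation of GRCm38 (mm10), 35 members overlapped the start of an opposite-strand protein-coding gene and reached out beyond it (divergent), 33 overlapped its end (convergent), 32 lay inside it and 6 spanned it. The other 14 overlapped no protein-coding gene on the other strand. The gene that a member overlaps by the most bases is called its partner. Of the members, 57 began within 1000 bases of the start of an opposite-strand protein-coding gene, and 21 shared no exon base with any gene on the other strand.

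Levels between genes are compared as TMM-scaled CPM per kilobase of exon. The highest mean over the 18 libraries was that of F630028O10Rik at 24.1 CPM per kilobase, the transcript that holds the miR-223 hairpin. Gm15987, inside the lectin gene Clec2g, followed with 21.2, and Tug1, a widely expressed long noncoding RNA, with 19.8. Gm39091 stood at 16.9, Gm45552 at 15.5 and Runx2os1 at 14.5 CPM per kilobase. Gm26740, Gm12493, Gm11455 and Gm26947 completed the 10 highest, between 11.3 and 12.5. Kcnq1ot1 had the most counts of all members, 47259, but it is annotated as 1 exon of 93092 bases and ranked 69 with 2.36 CPM per kilobase. These means hide large differences between groups. Gm12493 had 32.5 CPM per kilobase with imiquimod at 6 h and 0.12 with vehicle at 6 h, while F630028O10Rik had 1.15 and 42.1.

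**Figure D1:**
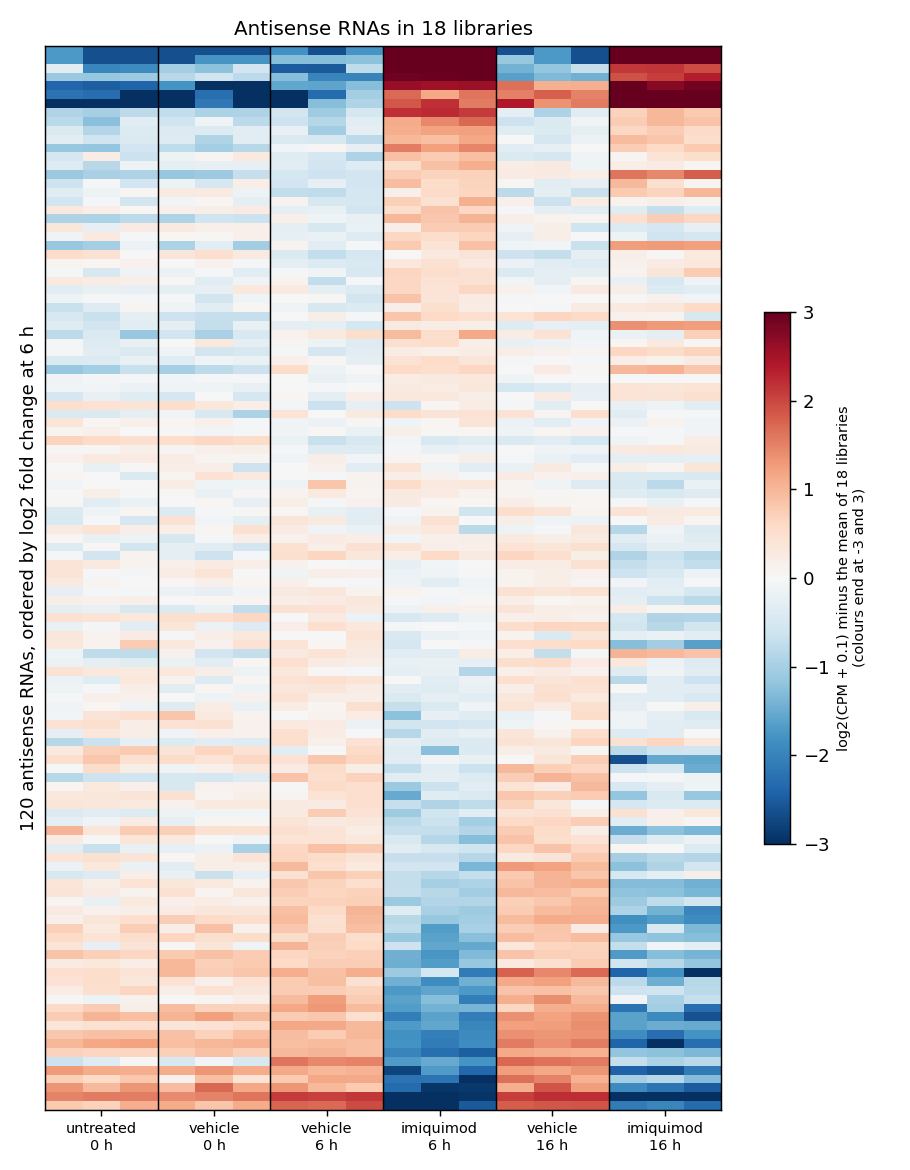
Heat map of the 120 antisense RNAs (rows, ordered by log2 fold change at 6 h) in the 18 libraries (columns, 3 per group). Colour is log2(CPM + 0.1) minus the mean of the row, and the libraries of each group look alike while both imiquimod groups differ from the vehicle groups at the top and bottom of the map.

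Imiquimod was first compared with vehicle at 6 h, to ask which antisense RNAs respond to the agonist. More members fell than rose. Of the 120, 39 rose, 57 fell and 24 did not pass an adjusted p of 0.05, so that 80% were called against a background of 76.9% of the 14876 genes tested, 37.7% of which rose and 39.2% fell. The share called is thus near that of all genes. The median log2 fold change was -0.22 in the members and -0.037 over all genes. Changes of at least 2-fold were called for 20 members that rose and 38 that fell, or 48.3%, beside 35.5% of all genes. With library totals in place of TMM factors, a scaling that moved the median of all genes by -0.35 on the log2 scale, 27 members rose and 69 fell. Among the 81 members with at least 500 counts in the 12 libraries outside this comparison, 24 rose and 41 fell. The 21 members free of exon overlap on the other strand were nearly even, with 10 higher and 9 lower.

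At 16 h the split was 31 higher and 64 lower than vehicle, with 25 members not called. That is 79.2%, beside a background of 77.2% of all genes, 39.1% higher and 38.1% lower. The median log2 fold change was -0.45 in the members and -0.003 over all genes, and 16 members rose and 37 fell by at least 2-fold (44.2%, beside 33.4% of all genes). Among the 77 members with at least 500 counts outside this comparison, 17 rose and 46 fell. Of the 21 members free of exon overlap on the other strand, 7 rose and 12 fell. The 150 long intergenic RNAs of the same table with at least 500 counts split in the same direction, 45 up and 77 down at 6 h and 31 up and 79 down at 16 h. The 10371 protein-coding genes above the same threshold had 4422 up and 4292 down at 6 h, nearly even, and 4769 up and 3936 down at 16 h, more up than down. The difference between these classes was not tested.

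The largest rise belonged to Gm12493 (chr 4, 44967769 to 44971096, plus strand), a short transcript of 441 exon bases that overlaps no protein-coding gene on the other strand. It is not free of exon overlap, since 66.7% of its exon bases lie over opposite-strand exons of other gene types. It had 12.1, 15.5 and 15.5 CPM in the imiquimod 6 h libraries and 18.6, 18.3 and 16.5 at 16 h. Of the 12 untreated and vehicle libraries none passed 0.0887 CPM, so the groups did not overlap. The counts behind this were 441 against 2 at 6 h, a ratio of 273 with an exact 95% interval of 75.1 to 2260, and 704 against 1 at 16 h, a ratio of 600.2 with an interval of 107 to 23740. These intervals cover counting error only. Of the 1149 counts of Gm12493, 441 came from imiquimod at 6 h and 704 from imiquimod at 16 h. It is thus a member only through the imiquimod libraries. The same holds for 4933406J09Rik, 4930599N23Rik, A630019I02Rik, Gm10851, Gm37422 and 1810064F22Rik, described below. Without their imiquimod libraries they would not have reached the count threshold, so their place in the set depended on their rise. The fitted log2 fold changes were 7.83 (SE 0.33, adjusted p = 1.4e-35) and 8.79 (SE 0.34, adjusted p = 5.7e-38).

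4933406J09Rik (chr 6, 134308951 to 134403415, minus strand) runs out from Bcl2l14, a gene of the BCL2 family. Its level was 9.41, 7.45 and 7.95 CPM with imiquimod at 6 h, against 0.156, 0.154 and 0.164 with vehicle. At 16 h it was 8.19, 7.89 and 8.42 CPM, against 0.184, 0.0887 and 0. All imiquimod libraries lay above all others. The log2 fold change was 5.62 (SE 0.32) at 6 h, and the 322 counts against 3 at 16 h gave a ratio of 91.5 with an interval of 31.0 to 446. At 6 h the vehicle group held only 6 counts, so that SE is likely too small. Bcl2l14 itself rose by 3.31 and 3.37 on the log2 scale.

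4930599N23Rik (chr 6, 39118473 to 39148312, plus strand) starts 124 bases from the start of Parp12 on the opposite strand, so that both are read outward from 1 stretch of DNA. Parp12 is an ADP-ribosyltransferase induced by interferon. The RefSeq promoter of 4930599N23Rik, from 250 bases before to 50 after its start in GRCm38.p6, is shown because the neighbours rose together. It lies at chr6:39118223-39118522 on the plus strand, and the capitals mark the one match to GAAANNGAAA, the core letters of the interferon-stimulated response element (ISRE), 237 bases before the start.
4930599N23Rik: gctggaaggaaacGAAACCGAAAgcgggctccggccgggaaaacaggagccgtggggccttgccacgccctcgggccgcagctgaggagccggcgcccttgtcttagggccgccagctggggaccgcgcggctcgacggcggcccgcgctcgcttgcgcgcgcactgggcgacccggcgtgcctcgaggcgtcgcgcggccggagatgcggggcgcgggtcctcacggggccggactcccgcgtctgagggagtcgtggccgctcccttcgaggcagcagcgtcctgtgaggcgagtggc

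4930599N23Rik had 9.41, 9.97 and 10.0 CPM with imiquimod at 6 h and 0.0778, 0.0771 and 0.492 with vehicle. At 16 h it had 4.31, 4.36 and 3.85 CPM against 0.276, 0.355 and 0.522. The groups did not overlap at either time, and the level was lower at 16 h than at 6 h. Its log2 fold change was 5.47 (SE 0.30) at 6 h and 3.40 (SE 0.32) at 16 h, beside 5.49 and 3.78 for Parp12. Kdm7a, a histone demethylase gene into whose 3' end 4930599N23Rik runs, fell by 2.28 and 2.29 on the log2 scale. Motifs were searched on both strands of 66 promoters of the 58 members found in RefSeq. GAAANNGAAA was found for 4 of the 58 members in 4 of the 66 promoters (6.06%), beside 3.44% of all 32851 promoters. The other holders were F630028O10Rik, Rab10os and B130046B21Rik. TTCNNNGAA, the gamma-activated site bound by STAT factors, was found in 3 of the 66, beside 8.30% of all promoters. A match is a run of letters and no evidence of binding.

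A630019I02Rik (chr 13, 93094833 to 93098968, plus strand) lies inside Cmya5, a gene best known from muscle, with 82.0% of its exon bases over exons on the other strand. It had 30.5, 30.7 and 32.7 CPM with imiquimod at 6 h and 1.56, 0.925 and 0.903 with vehicle. At 16 h the values were 15.1, 16.9 and 20.7 CPM against 1.19, 1.51 and 1.39. The imiquimod libraries were above every vehicle library. The log2 fold changes of 4.78 (SE 0.15) and 3.67 (SE 0.17) were larger than those of Cmya5, which rose by 2.03 and 0.90, but the difference between the genes was not tested.

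Gm10851 (chr 2, 11521706 to 11530836, plus strand) lies inside Pfkfb3, which encodes an enzyme that speeds up glycolysis, and shares no exon base with it. Its RefSeq promoter at chr2:11521392-11521691, plus strand, holds 1 match to the kappaB motif, bound by NF-kappaB, in capitals 84 bases before the RefSeq start. The motif was found for 7 of the 58 members, in 7 of their 66 promoters (10.6%), beside 4.51% of all promoters. Of the other holders, 1700099I09Rik, Gm16794, Gm4285 and Zbtb11os1 fell with imiquimod at 6 h, 4930513N10Rik rose and 1700008J07Rik was not called.
Gm10851: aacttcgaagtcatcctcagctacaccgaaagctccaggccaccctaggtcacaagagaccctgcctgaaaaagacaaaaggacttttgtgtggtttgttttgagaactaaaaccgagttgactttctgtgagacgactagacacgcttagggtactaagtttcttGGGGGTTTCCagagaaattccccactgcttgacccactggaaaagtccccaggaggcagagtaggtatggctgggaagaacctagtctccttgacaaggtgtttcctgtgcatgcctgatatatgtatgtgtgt

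Gm10851 had 8.73, 8.33 and 8.64 CPM with imiquimod at 6 h against 0.389, 0.386 and 0.492 with vehicle. At 16 h it had 12.9, 9.54 and 10.6 CPM with imiquimod, but vehicle libraries had also risen, to 4.41, 2.93 and 2.96. The groups stayed apart at both times. The log2 fold change fell from 4.31 (SE 0.26) to 1.69 (SE 0.16), while Pfkfb3 rose by 2.29 and 1.66.

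Gm37422 and 1810064F22Rik also rose both with imiquimod and with time in vehicle. Gm37422, convergent with the lysine methyltransferase gene Smyd2, had 2.75, 1.84 and 2.55 CPM with imiquimod at 6 h and 19.4, 20.4 and 17.8 at 16 h. With vehicle it had 0, 0.0771 and 0.328 CPM at 6 h and 2.39, 2.93 and 2.35 at 16 h. It was higher with imiquimod at each time, with log2 fold changes of 4.07 (SE 0.46) and 2.91 (SE 0.15). Smyd2 did not pass the test at 6 h (0.21) and rose by 1.92 at 16 h. 1810064F22Rik rose by 3.90 (SE 0.44) and 2.03 (SE 0.18) on the log2 scale. The vehicle 6 h group held only 5 counts of Gm37422 and 7 of 1810064F22Rik, so their SEs at 6 h are likely too small. Gm17435, which begins 320 bases from the transporter gene Slc35e1 and runs into Med26, a Mediator subunit gene, rose from 4.98, 3.47 and 5.09 CPM to 34.0, 34.9 and 31.6 at 6 h and from 5.97, 3.81 and 5.66 to 12, 14.6 and 12.7 at 16 h. Those are log2 fold changes of 2.89 (SE 0.12) and 1.35 (SE 0.13). Slc35e1 rose by 0.11 and 0.13, and Med26 (0.08 and 0.17) was not called.

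F630028O10Rik (chr X, 96239926 to 96243636, plus strand) showed the largest fall at 16 h. The hairpin of miR-223, a microRNA of myeloid cells, lies within it on the same strand. The mature forms are shown from RefSeq, with the seed, bases 2 to 8, in capitals, since this member is the transcript that carries them. The libraries do not measure mature microRNAs.
mmu-miR-223-3p: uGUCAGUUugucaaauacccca
mmu-miR-223-5p: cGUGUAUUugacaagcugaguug
The promoter of F630028O10Rik at chrX:96239676-96239975, plus strand, held 1 match to GAAANNGAAA on its reverse strand, in capitals.
F630028O10Rik: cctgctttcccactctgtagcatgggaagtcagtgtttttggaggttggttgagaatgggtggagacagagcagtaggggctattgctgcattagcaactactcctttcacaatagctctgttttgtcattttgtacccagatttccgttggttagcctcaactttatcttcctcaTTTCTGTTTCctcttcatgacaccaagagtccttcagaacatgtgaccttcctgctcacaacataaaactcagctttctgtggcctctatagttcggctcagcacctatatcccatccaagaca

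F630028O10Rik had 140, 134 and 142 CPM with vehicle at 6 h and 138, 152 and 152 at 16 h. With imiquimod it had 4.02, 3.19 and 4.12 CPM at 6 h and 1.83, 1.35 and 1.84 at 16 h. The groups were far apart, a fall by 5.19 (SE 0.08) at 6 h and by 6.45 (SE 0.09) at 16 h on the log2 scale. 4930599N23Rik and F630028O10Rik, whose promoters both hold the motif, moved in opposite directions. The summed monocyte and macrophage markers moved with this member, from 1687 to 1833 CPM with vehicle to 200 to 205 with imiquimod at 6 h, and from 2090 to 2163 down to 93.2 to 111 at 16 h. Of the 7 listed markers none was at 0 and 6 were tested, of which 2 rose and 4 fell at 6 h and 1 rose and 5 fell at 16 h. Their part in the result was not tested.

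Gm45606 (chr 11, 75530277 to 75533071, minus strand) runs out from the start region of Slc43a2, an amino acid transporter gene. It fell from 14.9, 14.5 and 17.3 CPM with vehicle to 0.392, 0.0968 and 0.687 with imiquimod at 6 h. At 16 h it fell from 15.7, 16.1 and 16.4 to 0.950, 1.05 and 0.801 CPM. No imiquimod library came near the vehicle range, and the log2 fold changes were -5.28 (SE 0.24) and -4.09 (SE 0.18). Slc43a2 fell with it, by 4.39 and 2.99.

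Gm39091 lies inside Itgad, an integrin gene of myeloid cells (chr 7, 128182379 to 128184096, minus strand). It fell from 13.1, 12 and 12.4 CPM to 0.784, 1.74 and 1.08 at 6 h and from 14.3, 13.3 and 15.1 to 1.02, 0.901 and 1.28 at 16 h. Its log2 fold changes were -3.36 (SE 0.19) and -3.73 (SE 0.18), beside -3.82 and -4.59 for Itgad. Gm13919, inside the receptor gene Ldlrad3 with no shared exon base, fell by 2.86 and 3.35 while Ldlrad3 fell by 3.64 and 4.28. Gm13091, inside the corepressor gene Rere, fell by 2.81 and 3.52, and Rere by 1.70 and 1.66. 1810034E14Rik, inside the phosphatase gene Cdc14b, fell by 3.94 and 2.58, and Cdc14b by 1.66 and 1.48. Gm42722 fell by 4.39 and 4.04, and Gm26740, inside Raet1e, by 2.85 at both times. Gm26947 fell by 3.21 and 2.35, and Atcayos by 2.26 and 4.60. Gm45552 fell by 2.89 and 4.13.

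**Figure D2:**
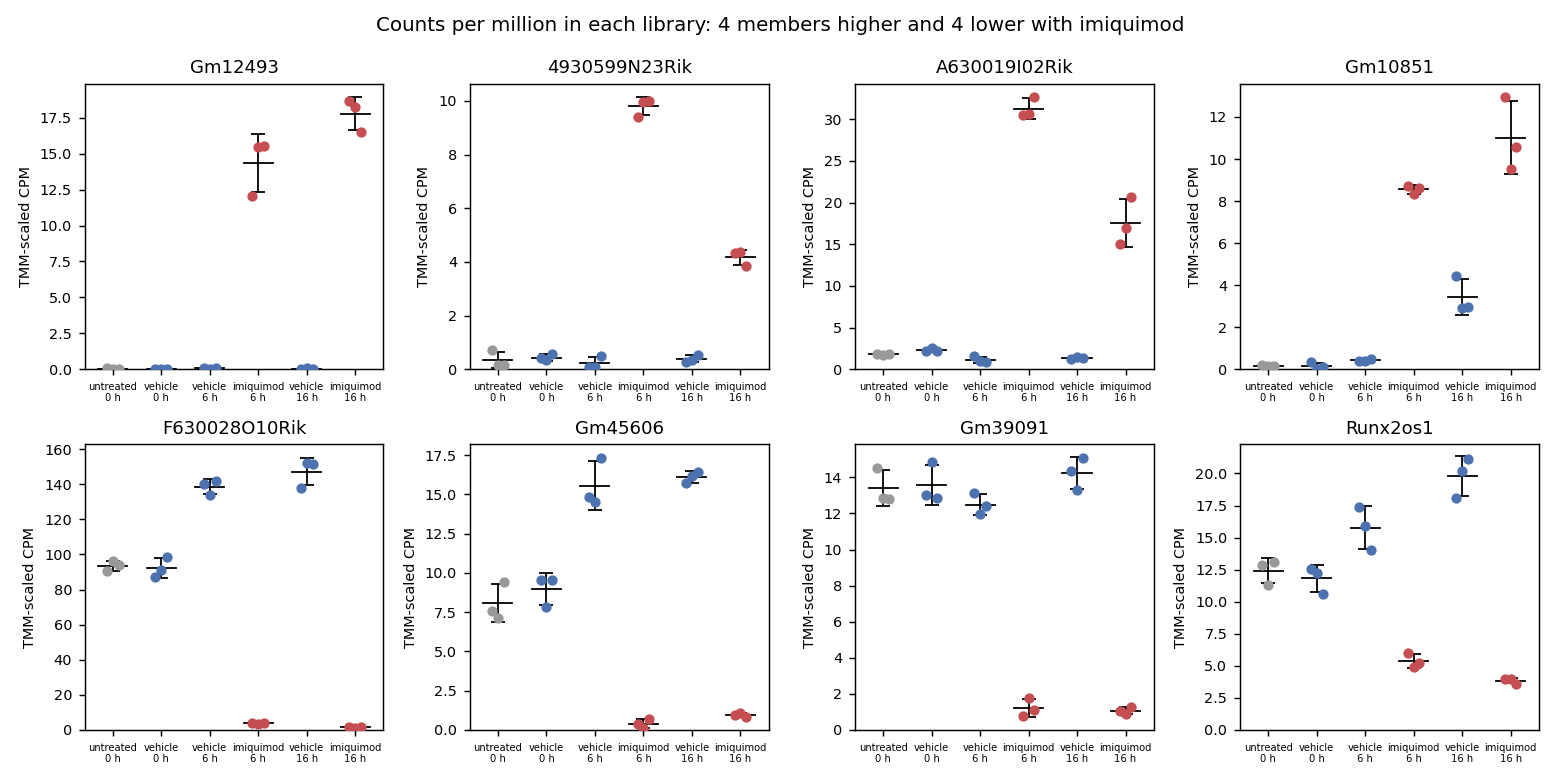
TMM-scaled CPM in each library (points, 3 per group) of 4 members that were higher and 4 that were lower with imiquimod, with group means (lines) and SD (bars) on linear axes from 0. At each time the imiquimod libraries lie wholly above vehicle in the upper row and wholly below it in the lower row, and Gm10851 also climbs in vehicle at 16 h.

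Runx2os1 and Zeb2os fell with imiquimod, as did Runx2 and Zeb2, the transcription factor genes they lie opposite to. Runx2 drives pDC migration and Zeb2 favours the pDC fate. Runx2os1 (chr 17, 44735845 to 44737612, plus strand) had 17.4, 15.9 and 14 CPM with vehicle and 5.98, 4.94 and 5.20 with imiquimod at 6 h. At 16 h it had 18.1, 20.2 and 21.1 against 3.95, 3.98 and 3.61 CPM. The libraries of the 2 treatments did not overlap. It fell by 1.55 (SE 0.13) and 2.36 (SE 0.12), and Runx2 by 1.04 and 2.15, on the log2 scale. Zeb2os, inside Zeb2, fell by 0.85 (SE 0.16) and 2.29 (SE 0.20), and Zeb2 by 1.31 and 1.81. Of the exon bases, 65.5% of Runx2os1 and 32.8% of Zeb2os lie over exons on the other strand. 5830432E09Rik, inside the phosphatase gene Ptpre, fell by 1.94 and 2.09, beside 1.5 and 1.51 for Ptpre. Gm10138 fell by 2.39 and 2.18, and its divergent neighbour Ivns1abp by 1.73 and 1.23. Zeb2os, 5830432E09Rik and Gm10138 were chosen after their values were seen, as were H3f3aos, A930024E05Rik, 1600020E01Rik, Gm11175, Gm10501, Gm16094, Gm15133, BC051226, Arhgap27os2, Gm14286, Gm48529, Brip1os and Gt(ROSA)26Sor.

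A further 3 members begin within 1000 bases of a gene induced in the interferon response, on the opposite strand. Gm16094 starts 469 bases from Sp110, a nuclear body gene, and rose by 1.06 (SE 0.23) at 6 h, beside 1.83 for Sp110. Gm15133 starts 447 bases from Trim12a, of the antiviral TRIM family, and rose by 1.46 (SE 0.19), beside 1.09. BC051226 starts 97 bases from Daxx, a histone chaperone gene, and rose by 0.58 (SE 0.22), beside 3.37. At 16 h Gm15133 was still higher than vehicle (0.69), whereas Gm16094 (0.17) and BC051226 (-0.05) did not pass the test. The call for BC051226 at 6 h was lost without imiquimod 6 h replicate 3 (0.45) or vehicle 6 h replicate 1 (0.47), and with library totals (0.23).

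Of the 120 members, 88 had a partner that was tested. At 6 h, 60 pairs had both genes called, with 19 pairs both higher, 20 both lower, 7 with the member higher and the partner lower, and 14 the other way. At 16 h, 59 pairs had both called, 11 both higher, 23 both lower, 9 with the member higher and the partner lower, and 16 the other way. Members inside their partner went the same way as it in 16 of 21 pairs at 6 h and in 16 of 22 at 16 h. Divergent members did so in 13 of 21 and 11 of 20 pairs, and convergent members in 8 of 16 and 6 of 15. Differences between these arrangements were not tested. Inside members and their partners both had negative median log2 fold changes (-0.39 and -0.754 at 6 h, -0.792 and -0.561 at 16 h), so some agreement comes from that alone. Whether these pairs or those below agreed more often than their shares higher and lower would give was not tested. Among the 54 members with a tested gene starting within 1000 bases on the other strand, 35 pairs had both called at 6 h, 23 of them in the same direction. In those 54 pairs 26 members fell and 15 rose, while 14 neighbours fell and 32 rose, beside 39.2% lower and 37.7% higher over all genes. The difference between members and neighbours was not tested.

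Gm11175 (chr 8, 70699162 to 70700080, minus strand) has 100% of its exon bases over exons of Jund, a subunit of the AP-1 transcription factor. It went from 2.57, 3.24 and 3.45 CPM with vehicle to 0.784, 1.84 and 1.77 with imiquimod at 6 h, a fall by 1.07 (SE 0.26), and fell by 1.71 at 16 h. Jund rose by 2.53 and 2.05. A930024E05Rik, which starts 469 bases from the histone demethylase gene Kdm2b, fell by 2.73 (SE 0.24) and 1.73, and Kdm2b rose by 1.16 and 0.48. 1600020E01Rik starts 74 bases from Pcbp1, an RNA-binding protein gene, and fell by 0.29 and 0.68, while Pcbp1 rose by 1.27 and 0.89. H3f3aos starts 167 bases from the histone gene H3f3a and fell by 2.46 and 1.54, beside changes of 0.09 and -0.33 in H3f3a. Gm10501, with 80.8% of its exon bases over exons on the other strand, had 0.09 and 0.19 and was not called. Its partner Hspa1l, a heat shock protein gene, rose by 4.74 at 6 h, but had only 163 counts over the 18 libraries.

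Arhgap27 carries 2 members inside it that went opposite ways. Arhgap27os2 has 75.9% of its exon bases over exons on the other strand, and Arhgap27os3 has none there. Whether reads of Arhgap27 entered the counts of Arhgap27os2 was not tested. Arhgap27os3 had 12.9, 12.6 and 12.2 CPM with imiquimod at 6 h and 27.9, 26.4 and 25.6 at 16 h, against 8.71, 8.79 and 7.47 and then 8.18, 9.04 and 8.88 with vehicle. Arhgap27os2 had 2.55, 2.03 and 2.75 CPM at 6 h and 2.12, 2.85 and 2.64 at 16 h, against 10.9, 11.5 and 11.7 and then 12.9, 11.6 and 11.4 with vehicle. The groups did not overlap for either member. Arhgap27os3 rose by 0.59 (SE 0.12) and 1.61 (SE 0.10), Arhgap27os2 fell by 2.21 (SE 0.16) and 2.23 (SE 0.15), and Arhgap27, a GTPase-activating protein gene, fell by 1.08 and 1.09. With library totals the rise of Arhgap27os3 at 6 h was 0.24 and no longer called.

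**Figure D3:**
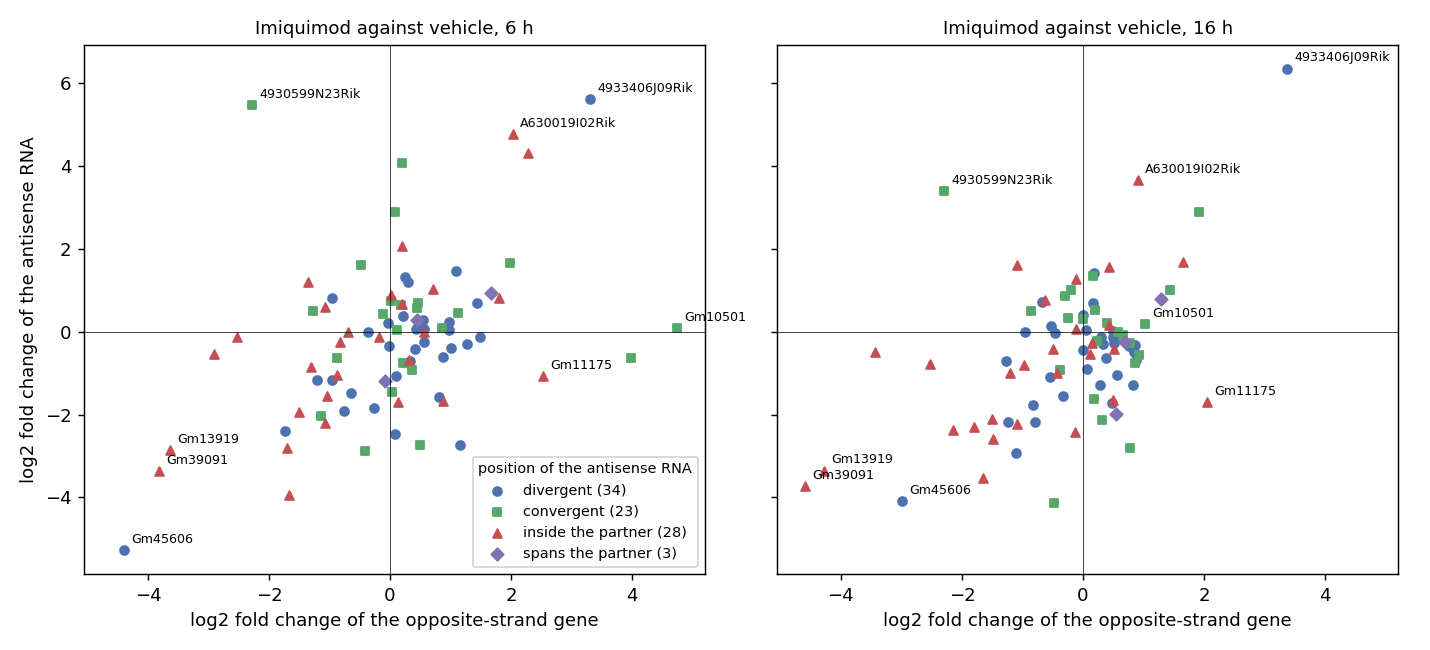
Log2 fold change of each antisense RNA (vertical axis) against that of its opposite-strand partner gene (horizontal axis) in the 88 tested pairs, at 6 h (left) and 16 h (right), with the position of the member as colour and shape. Gm45606, Gm13919 and Gm39091 lie low with their partners, 4933406J09Rik and A630019I02Rik lie high, and 4930599N23Rik and Gm11175 lie opposite to theirs.

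The imiquimod effect at 16 h was compared with that at 6 h. Both effects have their own vehicle group, and they keep their sign, so that a deeper fall at 16 h counts as a lower effect. Of the members, 13 had a higher effect at 16 h, 39 a lower one and 68 were not called, which is 43.3% beside a background of 56.9% of all genes, 28.5% higher and 28.4% lower. The median difference was -0.25 in the members and -0.006 over all genes. With library totals, which moved the median of all genes by 0.334, the split was 25 higher and 20 lower. By call at each time, 27 members were higher at both, 51 lower at both, 2 higher at 6 h and lower at 16 h, and 0 the reverse. Over all genes tested those shares were 28.1, 28.3, 3.52 and 4.31%, beside 22.5, 42.5, 1.67 and 0% of the members. The remaining members were called at 1 time or not at all, with 9 called at neither.

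The most negative differences were those of Gm10851 (-2.62, SE 0.36), Atcayos (-2.33, SE 0.60), 4930599N23Rik (-2.07, SE 0.68), 1810064F22Rik (-1.87, SE 0.55) and Gm17435 (-1.54, SE 0.19). Atcayos fell further at 16 h, and the others had a smaller fold rise over vehicle. For 2 of them the imiquimod level itself was higher at 16 h, while vehicle had also risen. 1810064F22Rik went from 1.05 to 4.12 CPM per kilobase with imiquimod and from 0.068 to 1.01 with vehicle. Gm10851 went from 5.08 to 6.54 with imiquimod and from 0.25 to 2.04 with vehicle. For 4930599N23Rik the call was lost without vehicle 16 h replicate 3 (-1.79). Atcayos, antisense to a gene best known from neurons, had 0.686, 1.06 and 0.295 CPM with imiquimod at 6 h and 0.219, 0.376 and 0 at 16 h, against 3.50, 3.01 and 3.45 and then 5.60, 4.43 and 5.40 with vehicle. The most positive differences were those of Gm31597 (1.59, SE 0.33), 1810034E14Rik (1.36, SE 0.58), Gm45606 (1.19, SE 0.47), Gm9856 (1.13, SE 0.22) and Gm15545 (1.11, SE 0.37). Apart from Gm31597, these members fell at 6 h, and their fall was smaller or not called at 16 h. Gm31597, inside the sulfotransferase gene Sult2b1, had 4.68, 4.51 and 4.17 CPM with imiquimod at 16 h against 2.57, 1.33 and 2.18 with vehicle, and 1.76, 1.74 and 2.65 against 2.72, 3.01 and 2.71 at 6 h. It rose at 16 h (1.14) and did not pass the test at 6 h (-0.45). The call for Gm45606 was lost without imiquimod 6 h replicate 1 (1.19) or 2 (0.73) or imiquimod 16 h replicate 2 (1.11), and 1810034E14Rik lost its call in 8 of the 12 such refits.

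Gm14286 and Gm48529 rose at 6 h and fell at 16 h. Gm14286 had 4.90, 4.16 and 3.93 CPM with imiquimod at 6 h against 2.72, 3.08 and 2.63, and 3.0, 2.93 and 1.92 at 16 h against 3.68, 4.34 and 4.09. The log2 fold changes were 0.62 and -0.62, a difference of -1.24 (SE 0.28). Gm48529, inside Tagln, had 0.88 and -0.42, a difference of -1.30 (SE 0.23). The 16 h calls are weak. That of Gm14286 was lost without imiquimod 16 h replicate 3 (-0.44), and that of Gm48529 without imiquimod 16 h replicate 2 (-0.33) or 3 (-0.36) or vehicle 16 h replicate 2 (-0.30) or 3 (-0.40). With library totals the 6 h rise of Gm14286 was 0.27 and not called. Brip1os, which starts 177 bases from the DNA repair gene Brip1, had a larger effect at 16 h (0.79) than at 6 h (0.28), a difference of 0.51 (SE 0.08), and Brip1 rose by 2.16 and 0.48. With library totals the 6 h value of Brip1os was -0.07.

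**Figure D4:**
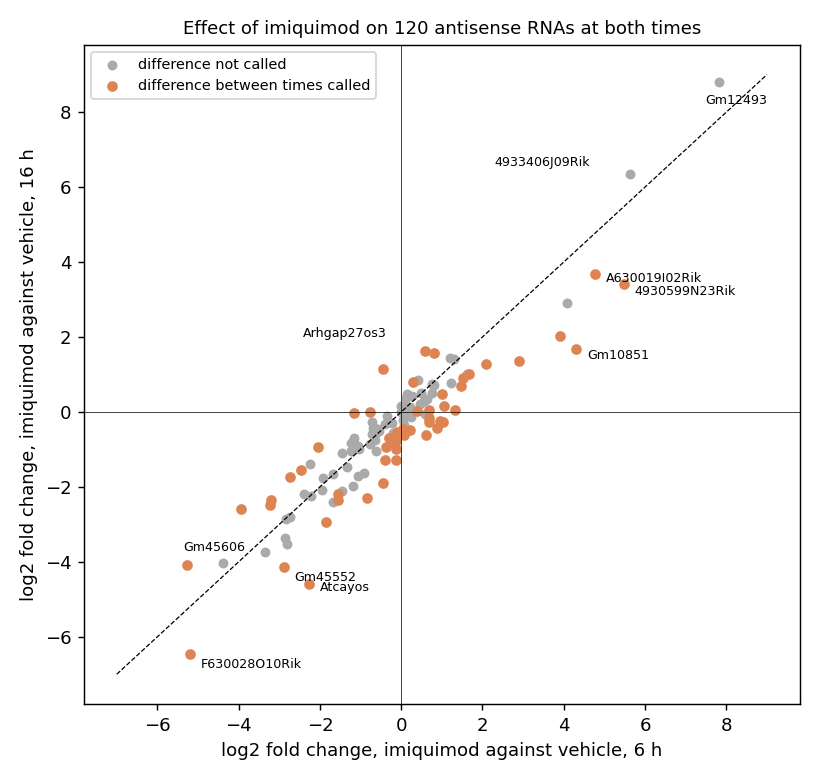
Log2 fold change of imiquimod against vehicle at 16 h (vertical axis) and 6 h (horizontal axis) for the 120 antisense RNAs, with members whose effects differed between the times in orange and equality as a dashed line. Gm12493 lies at the upper right with 7.83 and 8.79, F630028O10Rik at the lower left with -5.19 and -6.45, and Gm10851 below the line with 4.31 and 1.69.

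Time in vehicle alone was compared with vehicle at 0 h, since antisense levels could drift in culture. More members rose than fell. At 6 h, 40 rose, 10 fell and 70 were not called, 41.7% beside a background of 52.9% of all genes (26% higher, 26.9% lower), with a median of 0.17 beside 0.005 over all genes. At 16 h, 52 rose, 10 fell and 58 were not called, 51.7% beside a background of 58.4% (28.4% higher, 30% lower), with a median of 0.30 beside 0. The 150 long intergenic RNAs above the same threshold split in the same direction. Of these, 64 rose and 24 fell at 6 h (median 0.26), and 81 rose and 22 fell at 16 h (median 0.38). The difference between the 2 classes was not tested.

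Gm16638, which starts 79 bases from the lipid transfer gene Stard5, went from 4.45, 5.84 and 4.45 CPM at 0 h to 19.1, 17 and 17.7 at 6 h and 20.9, 19.3 and 18.5 at 16 h. It rose by 1.87 (SE 0.12) and 1.99 (SE 0.12), and imiquimod libraries had 1.86, 2.13 and 1.77 CPM at 6 h, below the 0 h range. Mypopos rose by 1.16 and 1.35, and Tmem147os and C230037L18Rik by 1.20 and 1.07 at 6 h. The rises at 16 h of 1810064F22Rik, 93 counts against 1 (ratio 102, interval 17.9 to 4068), Gm37422, 86 against 1 (ratio 94.3, interval 16.5 to 3765), and Gm10851 (log2 fold change 4.55, SE 0.42) were the largest. Gm10851 was also called at 6 h (1.56), a call lost without vehicle 0 h replicate 2 (1.03) or 3 (1.34) or any vehicle 6 h library (1.46 to 1.63). The transcript typed antisense under the symbol Trmt61b, the name of a tRNA methyltransferase gene, fell by 1.02 at both times, and B930036N10Rik by 0.95 and 0.92. 4930513N10Rik fell by 0.86 and 0.75, A630019I02Rik by 1.02 and 0.75, and 4930539J05Rik by 0.68 and 0.48. At 16 h the call for A630019I02Rik was lost without vehicle 0 h replicate 2 or vehicle 16 h replicate 1 (-0.66 each), and that for 4930539J05Rik without vehicle 0 h replicate 1 (-0.38) or vehicle 16 h replicate 2 (-0.37). Vehicle and untreated cells at 0 h did not differ in any member by edgeR (0 called of 120, background 0%). At an unadjusted p under 0.05 there were 3 members, beside 4.76% of all genes, and DESeq2 called 0.

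The best known members, Kcnq1ot1 and Tug1, changed by at most 0.38 on the log2 scale with imiquimod. Kcnq1ot1 silences genes of an imprinted region on the paternal chromosome. It had 221, 223 and 243 CPM in untreated libraries, 228, 243 and 244 in vehicle at 0 h, 212, 167 and 165 at 6 h, and 219, 200 and 201 at 16 h. With imiquimod it had 211, 185 and 192 CPM at 6 h and 264, 269 and 262 at 16 h. At 6 h the treatments overlapped and the difference of 0.11 (SE 0.09) did not pass the test, but it was called without vehicle 6 h replicate 1 (0.21), the highest vehicle library of that time. At 16 h all imiquimod libraries were higher, by 0.36 (SE 0.08). With library totals the 6 h value was -0.24. The members most like it, by Pearson correlation of log2 CPM means over the 6 groups, were Trmt61b (0.669), 4930513N10Rik (0.663) and B930036N10Rik (0.625).

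Tug1 had 189, 164 and 179 CPM with vehicle and 224, 230 and 239 with imiquimod at 6 h, a rise by 0.38 (SE 0.04). At 16 h it had 179, 194 and 194 against 189, 192 and 191 CPM, with 0.01 not called. With library totals its 6 h rise was 0.03 and not called. Gt(ROSA)26Sor, the transcript of the locus widely used for transgenes, rose by 0.75 (SE 0.09) and 0.52 (SE 0.09). Gm15987 rose by 1.01 and 0.49, and Gm11455 (-0.10) was not called at 6 h and fell by 0.54 at 16 h.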

How the data were processed

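RNA-seq of 18 libraries was deposited by the authors as 1 table of raw counts per gene, with a gene type for each. Per the submitters' processing notes, reads were aligned with STAR to mm10. The version of STAR, the counting program, its strand setting and its treatment of reads matching several places are not given in the sources used here. The members and the lists were chosen with earlier results of these data known. Counts were tested on all 14876 genes kept by filterByExpr (minimum count 10), with TMM factors and edgeR 4.0.16 (R 4.3.3) quasi-likelihood tests over all 6 groups, and p-values were adjusted by Benjamini-Hochberg over all genes (called at 0.05). The common dispersion was 0.000951, a coefficient of variation of 3.08%. SEs were taken from the fold change and its F statistic, which makes them too small for large changes that rest on few counts. CPM are TMM-scaled.

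Named members were, of those called and, except for the difference of effects, with groups that did not overlap, the 8 highest and 8 lowest log2 fold changes of both imiquimod comparisons, the 5 of each side for the difference and the vehicle times, the 10 highest per kilobase, and Kcnq1ot1 and Tug1 from a fixed panel. That gave 36 members, and 16 more were chosen after their values were seen. Positions came from GENCODE M21 (all 120 members found) and sequences from RefSeq (GRCm38.p6). Groups with 1 to 3 counts were given as ratios with exact counting intervals. On simulated counts for the 6 h comparison (14426 genes), 100 changes of 2-fold and 100 of 4-fold were planted, equally up and down. Of these, 94% and 99% were recovered, with 7 false calls. The other genes were unchanged, so the simulation could not test the scaling in the data, where 76.9% of genes were called. Alternatives were other scalings, filters, DESeq2 1.42.0, a replicate block, fewer samples and other thresholds of the rule. The results of 1 marker gene and 1 opposite-strand gene are not reported here.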

Additional observations from a re-analysis of the deposited data

Results flagged for a closer look

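The effect of imiquimod on 29 of the named members differed between 16 h and 6 h by edgeR's test of the difference itself, in log2 units of 16 h minus 6 h.

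Lower effects at 16 h were found for members that imiquimod raised. These were Gm10851 (-2.62), 4930599N23Rik (-2.07), 1810064F22Rik (-1.87), Gm17435 (-1.54), Gm48529 (-1.30), Gm14286 (-1.24), A630019I02Rik (-1.11), Gm16094 (-0.89), Gm15133 (-0.77), Gm15987 (-0.51) and Tug1 (-0.37). Members that were lower still at 16 h were Atcayos (-2.33), Zeb2os (-1.45), F630028O10Rik (-1.26), Gm45552 (-1.25), Runx2os1 (-0.81), 1600020E01Rik (-0.39) and Gm11455 (-0.43), the last not called at 6 h.

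Higher effects at 16 h were found for members whose fall was smaller at 16 h, or was not called there, namely 1810034E14Rik (1.36), Gm45606 (1.19), Gm9856 (1.13), Gm15545 (1.11), A930024E05Rik (1.00), H3f3aos (0.92), Gm26947 (0.87) and Gm16638 (0.73). Arhgap27os3 (1.02) and Brip1os (0.51) rose more at 16 h. Gm31597 (1.59) rose at 16 h and was not called at 6 h, where library totals gave a fall by 0.80.

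Some of these calls hung on single libraries. Gm16094 lost its call without imiquimod 6 h replicate 3 (-0.71), vehicle 16 h replicate 1 (-0.78) or 3 (-0.73), or vehicle 6 h replicate 2 (-0.78) or 3 (-0.76). Gm15133 lost it without imiquimod 16 h replicate 1 (-0.63), vehicle 16 h replicate 3 (-0.63) or vehicle 6 h replicate 3 (-0.61). A930024E05Rik lost it without imiquimod 16 h replicate 1 (0.70) or imiquimod 6 h replicate 3 (0.81). 1810034E14Rik lost it without any 1 of the imiquimod 6 h replicates 1 (1.58), 2 (1.57) and 3 (1.02), imiquimod 16 h replicates 1 (1.36) and 2 (1.27), vehicle 16 h replicate 3 (1.20) and vehicle 6 h replicates 2 (1.30) and 3 (1.32). 1600020E01Rik (-0.29 to -0.36) and Gm11455 (-0.38 to -0.43) lost it in 5 and 8 such refits. With library totals the difference was no longer called for 1600020E01Rik (-0.06), Gm11455 (-0.10), Gm15133 (-0.43), Gm15987 (-0.18), Gm16094 (-0.56) and Tug1 (-0.03). DESeq2 did not call it for 1810034E14Rik (1.37) or Gm11455 (-0.46). Without an expression filter it was lost for 1810034E14Rik (1.40), Gm11455 (-0.39) and 1600020E01Rik (-0.36).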

How the results depend on the processing

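Across DESeq2 size factors, library totals, other filters, fits on only the groups compared and the DESeq2 test, each count of called members stayed within 1.5 times its value above. Members with at least 1000 counts gave 50, 55, 32, 32 and 39 called (imiquimod 6 h, imiquimod 16 h, their difference, vehicle 6 h, vehicle 16 h), and members without exon overlap on the other strand gave 19, 19, 11, 10 and 11, since fewer genes enter. Without exon overlap the excess of falls was not seen at 6 h (10 higher, 9 lower). At 16 h the members with 500 counts outside the comparison, an alternative chosen after seeing the data, gave 63. Leaving out 1 library gave 92 to 95, 89 to 94, 47 to 54, 44 to 50 and 59 to 64 in the same order, and 0 to 0 for vehicle against untreated. The fold change reversed for Brip1os (-0.0659) and Kcnq1ot1 (-0.2429) at 6 h under library totals. Of 4353 refits of named fold changes, 4224 kept direction and call, 85 lost a call, 42 gained one and 2 reversed. The replicate numbers were treated as names. Of 15 same-number pairs 0 had a correlation of deviations over 0.1, and 5 pairs correlated best with their own number. A weak effect shared by libraries of the same number could not be seen this way, since the deviations hold much counting noise. With a replicate block 96, 95, 52, 49, 63 and 0 members were called. Where a group held 3 counts or fewer, depth left the ratio wide, as for Gm12493 at 6 h (75.1 to 2260).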
